A study of Mus musculus with 27 samples.

Results

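The genes described here are 33 mouse genes for lysosomal hydrolases, lysosomal membrane proteins and their close partners. The list is one of symbols, set by what the genes are known for and drawn up with earlier results of these data known, so the tests below are not independent of those results. All 33 were found among the 19069 genes with a symbol in the deposited expression table, and all 33 passed the filter on low values. By role they comprised 8 membrane proteins, 3 lipid transfer proteins and enzyme activators, 11 glycosidases, 3 lipid hydrolases, 2 sulfatases, 1 peptidase with 1 thioesterase, 2 subunits of the proton pump and 2 regulators. They were measured by RNA sequencing of cultured macrophages from C57BL/6 mice (strain label C57/B6). Marrow cells from femur and tibia first received 5 Gy from a FLASH proton beam, the same dose from a standard proton beam, or no irradiation. FLASH irradiation gives its dose at an ultra-high rate, whereas a standard beam gives it at a conventional rate. Every culture was then grown for 7 days in CSF-1 at 10 ng/ml, the growth factor that drives macrophage formation, and kept for 2 further days in LPS at 100 ng/ml (labelled M1), IL-4 at 20 ng/ml (labelled M2) or control medium (labelled M0). Each of the 9 combinations has 3 libraries. The cells were thus irradiated as marrow, before they became macrophages, and the labels do not say whether the 3 libraries of a group came from separate mice or cultures, so the p-values below measure only the spread between these libraries.

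Lysosomes are the acidic compartments in which cells break down what they engulf or recycle. Their soluble hydrolases, each with its own bond to cut, work at the low pH that the vacuolar proton pump maintains, and heavily glycosylated membrane proteins line and transport across the boundary. Macrophages take up dead cells, microbes and lipoproteins and so rely on this compartment more than most cells do. Inherited loss of many of these enzymes gives a lysosomal storage disease in which the uncut substrate accumulates. The transcription factor TFEB and its relatives of the MiT/TFE family bind E-box sequences in the promoters of many lysosomal genes and raise their transcription.

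Because such E-boxes are a known entry point to these genes, the promoters of the members were searched for the 6-base core CACGTG, which reads the same on both strands. RefSeq promoters (build GRCm38.p6, 250 bases before to 50 bases after the start) were at hand for 30 of the 33 members. The core was present in 7 of these 30 promoters (23.3%), against 2187 of 27025 genes with a promoter (8.09%). The 7 were those of Lamp1, Mcoln1, Gaa, Gla, Glb1, Sgsh and Atp6v0d1. The longer form GTCACGTG, searched on both strands and always overlapping the core, was present in 6 of 30 members (20%, without Gaa), against 2.55% of genes with a promoter. A match is only a run of letters and no binding was measured. Below are the promoters of the members on which the results turn, 5′ to 3′ in the direction of transcription, with the core in capitals. Lamp1 has the most matches, Gla changed after both LPS and irradiation, Sgsh had the largest change after IL-4, Arsb the largest after irradiation and Man2b1 the largest after LPS.
Lamp1 (chr8:13158911-13159210, strand +): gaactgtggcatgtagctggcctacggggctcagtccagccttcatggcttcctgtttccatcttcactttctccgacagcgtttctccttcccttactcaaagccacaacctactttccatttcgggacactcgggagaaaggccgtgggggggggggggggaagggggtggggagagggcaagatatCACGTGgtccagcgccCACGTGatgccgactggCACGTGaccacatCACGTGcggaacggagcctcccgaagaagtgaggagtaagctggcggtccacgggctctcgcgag
Gla (chrX:134600956-134601255, strand -): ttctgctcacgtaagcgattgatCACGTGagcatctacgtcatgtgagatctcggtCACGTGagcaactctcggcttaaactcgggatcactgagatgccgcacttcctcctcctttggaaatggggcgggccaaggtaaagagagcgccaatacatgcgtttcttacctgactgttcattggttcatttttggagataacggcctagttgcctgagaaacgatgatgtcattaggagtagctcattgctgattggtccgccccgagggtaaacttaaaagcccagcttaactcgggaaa
Sgsh (chr11:119355461-119355760, strand -): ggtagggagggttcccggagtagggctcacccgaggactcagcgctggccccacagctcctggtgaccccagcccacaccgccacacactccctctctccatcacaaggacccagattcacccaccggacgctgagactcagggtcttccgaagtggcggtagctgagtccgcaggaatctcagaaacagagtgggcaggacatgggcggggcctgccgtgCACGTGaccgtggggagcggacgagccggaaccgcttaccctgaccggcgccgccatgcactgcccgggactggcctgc
Arsb (chr13:93771429-93771728, strand +): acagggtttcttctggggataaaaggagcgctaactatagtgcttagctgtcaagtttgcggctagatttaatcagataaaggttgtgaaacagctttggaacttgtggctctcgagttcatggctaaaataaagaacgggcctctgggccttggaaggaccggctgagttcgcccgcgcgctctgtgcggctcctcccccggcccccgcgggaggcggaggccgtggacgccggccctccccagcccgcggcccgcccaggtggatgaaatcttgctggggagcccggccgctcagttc
Man2b1 (chr8:85083019-85083318, strand +): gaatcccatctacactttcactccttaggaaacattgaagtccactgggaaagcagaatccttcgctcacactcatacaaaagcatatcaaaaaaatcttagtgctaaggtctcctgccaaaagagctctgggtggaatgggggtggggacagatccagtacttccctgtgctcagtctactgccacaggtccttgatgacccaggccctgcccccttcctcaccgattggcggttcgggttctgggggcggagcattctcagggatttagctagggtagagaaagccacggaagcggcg
In Lamp1 the 4 cores began 61, 45, 28 and 15 bases before the start, in Gla 227 and 194 bases before it, and in Sgsh 29 bases before it. The windows of Arsb and Man2b1 do not hold these 6 letters. Among the other members, the core began 71 and 45 bases before the start in Mcoln1, 140 in Gaa, 48 in Glb1 and 3 in Atp6v0d1.

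Values are CPM, which the authors scaled between libraries. CPM is not corrected for gene length, so levels are compared between libraries and never between genes. The values corresponded to 20.7 M to 25.8 M reads per library. The cells carried macrophage markers in all 27 libraries, with Csf1r, the CSF-1 receptor, at 784 to 2257 CPM and Itgam at 543 to 1383 CPM. Cdkn1a, a p53 target induced by DNA damage, lay at 478 to 858 CPM in the 18 irradiated libraries and at 168 to 353 CPM in the 9 non-irradiated ones, so the irradiation labels and this gene did not overlap. The labels of state were less clear-cut. Libraries were placed on an LPS and an IL-4 axis by their response genes, with non-irradiated control-medium libraries averaging 0 and non-irradiated treated ones averaging 1. On these axes 22 libraries followed their labels and 5 did not. All 5 are replicate 1 of an irradiated group. On the IL-4 axis, the one labelled FLASH M0 lay at 0.74 and the one labelled Standard M1 at 0.82. On the LPS axis, the one labelled FLASH M1 lay at -0.20, and those labelled FLASH M2 and Standard M2 lay at 1.06 and 1.12. All 27 libraries stayed in the groups that their labels name, and results without these 5 follow each comparison.

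The titles also give each replicate number a code of its own that all 9 groups share, without saying what the code stands for. All 5 libraries at odds carry the code of replicate 1. In the deposited values the 3 replicate numbers hardly differed on average. Over 13297 genes the mean square between numbers was a median of 0.0044 times the residual mean square (quartiles 0.0017 and 0.01), where a number without any effect would give a median of 0.72. No source used here states an adjustment for replicate number. If the values had been adjusted for it, p-values from fits without a block would be mostly too small. A fit with replicate number as a block has 16 instead of 18 residual degrees of freedom and the same fold changes when all libraries are used, so its p-values are mostly larger. Where it ends a call, its adjusted p is given beside the result.

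**Figure D1:**
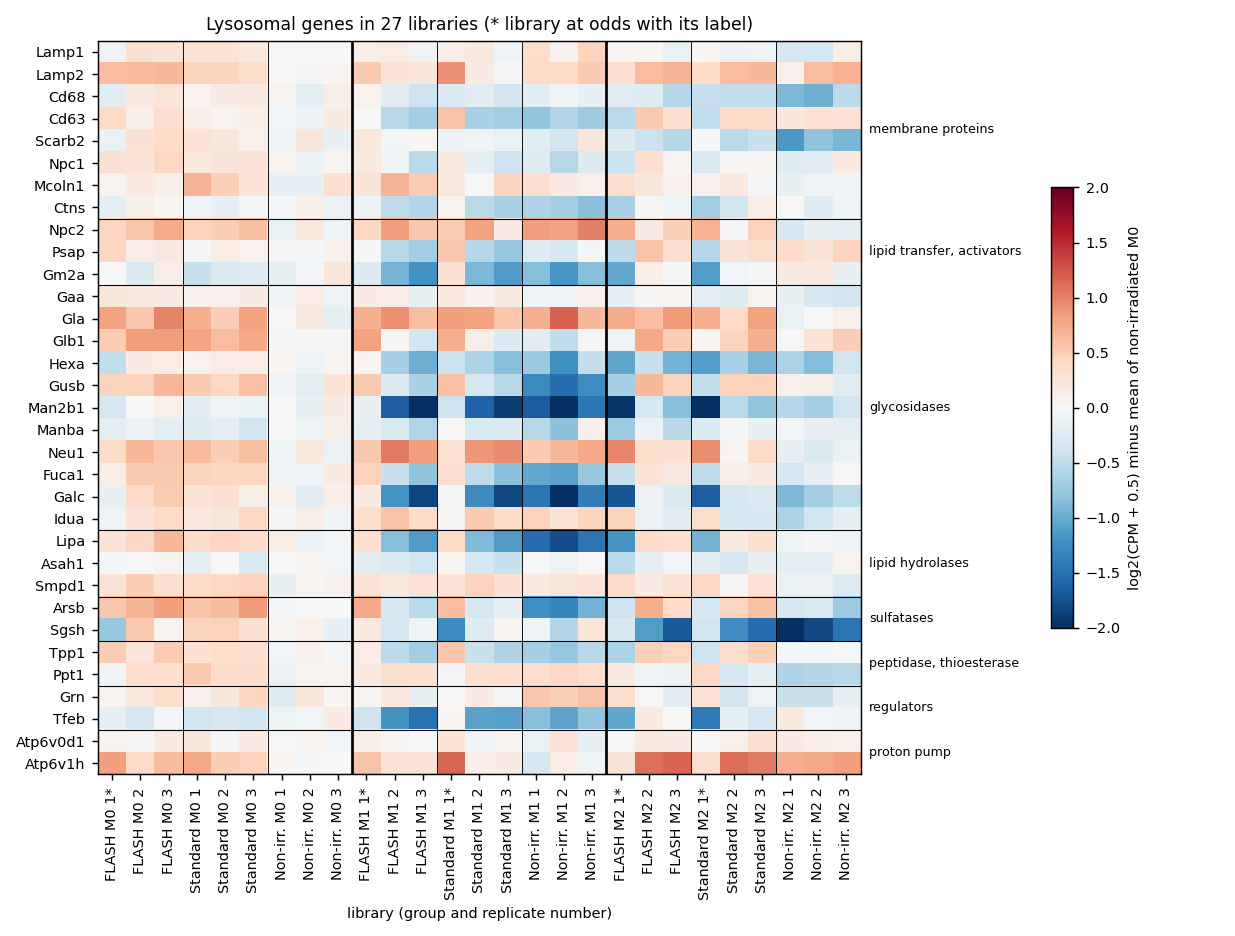
Each row is a lysosomal gene, grouped by role, and each column a library; colour gives log2(CPM + 0.5) minus the gene's mean in non-irradiated M0 libraries, and colours saturate at 2 either way. Man2b1, Galc and Lipa are blue in the non-irradiated M1 columns and Sgsh is blue in the non-irradiated M2 columns. Gla is red in the irradiated columns and also in the non-irradiated M1 columns. The 5 starred libraries differ from the other libraries with their label.

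The same mismatch showed in the lysosomal genes themselves. By the mean absolute log2 difference over the 33 genes, the library labelled FLASH M1 replicate 1 was closest to the irradiated M0 libraries that followed their labels (0.091), those labelled FLASH M2 and Standard M2 replicate 1 were closest to the M1 libraries (0.13 each), and those labelled FLASH M0 and Standard M1 replicate 1 were closest to the M2 libraries (0.14 and 0.16). For Man2b1, the 3 libraries labelled FLASH M1 held 1025, 369 and 267 CPM, and the 3 labelled FLASH M2 held 295, 922 and 642 CPM. In each of those groups replicate 1 stands apart from the other two. The groups' spread therefore holds both library variation and this mismatch, which touches every test below that uses the spread shared by all groups.

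The first question was what LPS does to these genes without irradiation, where all libraries followed their labels. The picture was mixed by enzyme and mostly downward for the hydrolases among the 33. Hydrolases outside the 33, counted further below, rose more often than they fell. In M1 against M0, 8 of the 33 members fell and 4 rose, whereas 7.54% of all genes tested fell and 9.87% rose (limma, Benjamini-Hochberg adjusted p below 0.05). The members' median log2 fold change was -0.16, against -0.013 for all genes tested. Of the 11 glycosidases 5 fell and 2 rose. Of the 8 membrane proteins 1 fell and none rose.

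Man2b1, the lysosomal alpha-mannosidase that trims N-linked sugars, fell most. It held 364, 227 and 423 CPM in M1 libraries, against 1142, 1042 and 1289.5 CPM in M0 libraries. The groups were far apart, and the log2 fold change was -1.82 ± 0.47 (SE, adjusted p = 0.014). Galc, which removes galactose from galactosylceramide and related myelin lipids, had 95.9, 55.0 and 101 CPM in M1 libraries, against 282, 226 and 291 CPM in M0 libraries. All 3 M1 values lay below all 3 M0 values, with a log2 fold change of -1.70 ± 0.49 (adjusted p = 0.0233). Gusb, the beta-glucuronidase that cuts glucuronic acid from glycosaminoglycans, had 347, 292 and 352 CPM in M1 libraries, against 793, 727 and 1012 CPM in M0 libraries, again with no overlap, and fell by 1.34 on the log2 scale (adjusted p = 0.0114). Fuca1, the alpha-fucosidase, and Hexa, the alpha subunit of beta-hexosaminidase, fell less, by 0.95 and 0.81 (adjusted p = 0.0266 and 0.0252).

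Outside the glycosidases, Lipa, the acid lipase that frees cholesterol and fatty acids from engulfed lipoproteins, had 824, 694 and 864 CPM in M1 libraries, against 2639, 2178 and 2314 CPM in M0 libraries. The M1 values were all lower, and the log2 fold change was -1.58 ± 0.42 (adjusted p = 0.0151). Arsb, the sulfatase that takes sulfate from dermatan and chondroitin sulfate, had 26.8, 25.3 and 32.4 CPM in M1 libraries, against 62.4, 63.4 and 63.5 CPM in M0 libraries, and fell by 1.16 (adjusted p = 0.0156). Ctns, which exports cystine, fell by 0.70 (adjusted p = 0.0243) and was the membrane protein that passed the test.

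The 4 members that rose with LPS were Npc2, Gla, Neu1 and Grn. Npc2, a soluble carrier that hands cholesterol to the membrane protein NPC1, had 2338, 2289 and 2622 CPM in M1 libraries, against 1191, 1509 and 1232 CPM in M0 libraries. There was no overlap, and the log2 fold change was 0.89 ± 0.19 (adjusted p = 0.00524). Gla, the alpha-galactosidase that is deficient in Fabry disease, had 353, 489 and 336 CPM in M1 libraries, against 213, 244 and 190.0 CPM in M0 libraries, a log2 fold change of 0.85 ± 0.16 (adjusted p = 0.0023). Neu1, the lysosomal sialidase, rose by 0.65 (adjusted p = 0.0361). Grn, the secreted and lysosomal regulator progranulin, had 3449.9, 3326 and 3545 CPM in M1 libraries, against 1982, 2778 and 2445 CPM in M0 libraries, and rose by 0.53 (adjusted p = 0.0418). Npc1, the partner of Npc2, had a log2 fold change of -0.36 that did not pass the test (adjusted p = 0.201).

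Of the structural membrane proteins Lamp1, Lamp2 and Cd68, none passed the test with LPS and all libraries. Lamp1, a main glycoprotein of the lysosomal membrane, had 2371, 1979.8 and 2536 CPM in M1 libraries, against 1857, 1863 and 1886 CPM in M0 libraries; its log2 fold change of 0.29 did not pass the test (adjusted p = 0.159). For Lamp2, its relative that also serves chaperone-mediated autophagy, the log2 fold change was 0.43 (adjusted p = 0.11), and for Cd68, a macrophage scavenger receptor of late endosomes, it was -0.16 (adjusted p = 0.485). Psap, the precursor of the saposins that present lipids to hydrolases, had 19745, 18910.0 and 22992 CPM in M1 libraries and 22895, 22907 and 25120.3 CPM in M0 libraries, a log2 fold change of -0.21 (adjusted p = 0.685). Tfeb had 37.5, 32.1 and 38.6 CPM in M1 libraries, against 62.4, 64.4 and 74.9 CPM in M0 libraries. All 3 M1 values lay below the M0 values, yet the log2 fold change of -0.89 ± 0.34 missed the threshold with all libraries (adjusted p = 0.07).

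Without the 5 libraries at odds with their labels the LPS fold changes are the same, since none of the 5 is in these groups, but the shared spread is smaller. In that fit 13 members fell and 7 rose, while 16.9% of all genes fell and 18% rose. It added Tfeb (adjusted p = 1.27e-05), Gm2a, Tpp1, Cd63 and Npc1 on the lower side and Ppt1, Lamp2 and Idua on the higher side. The 12 calls with all libraries were all among these 20. With the replicate block and all libraries 10 members were called, since Neu1 and Grn no longer passed (adjusted p = 0.0573 and 0.0681). With the block and without the 5 libraries 19 were, and Npc1 no longer passed. The calls with all libraries rest on few libraries: with non-irradiated M0 replicate 1 or replicate 3 left out 4 and 3 members were called, and with non-irradiated M1 replicate 2 left out 2 were. Gla and Npc2 kept their calls in all 6 such fits.

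**Figure D2:**
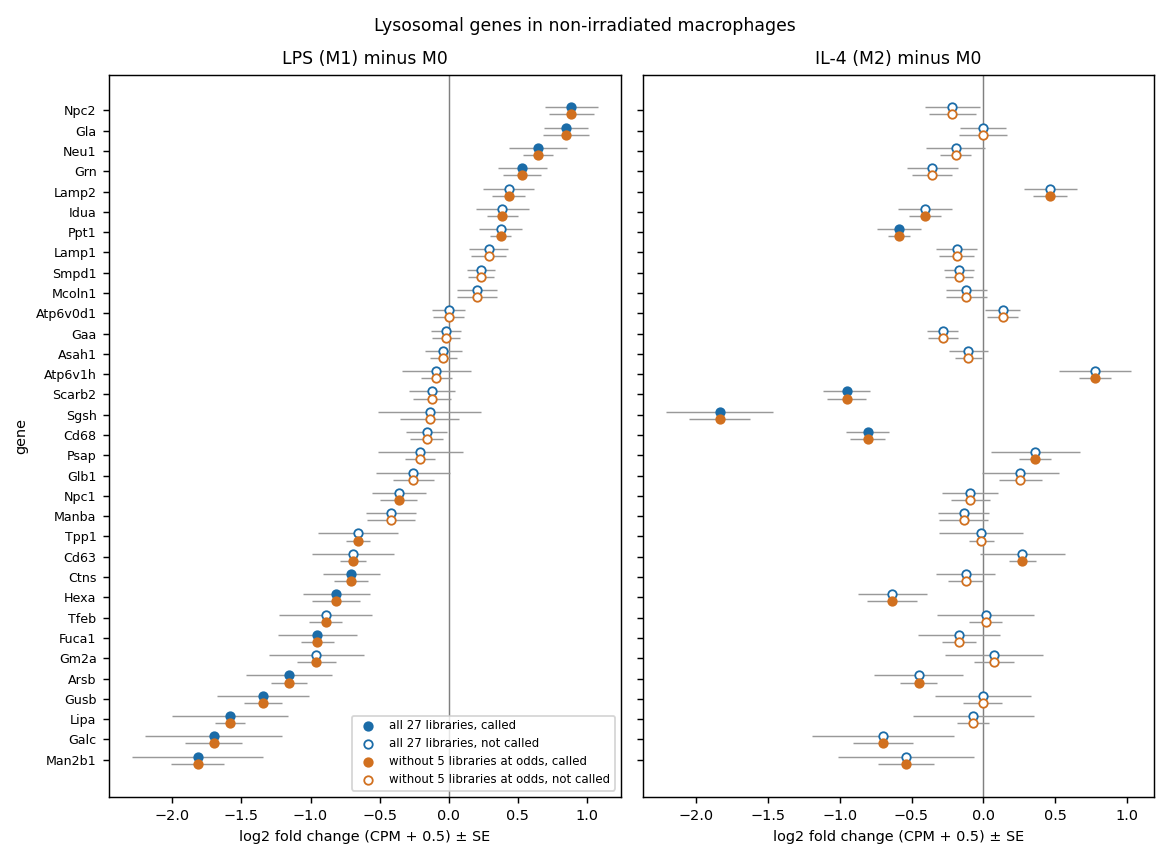
Log2 fold change ± SE of each lysosomal gene in non-irradiated cells, LPS (M1) minus control medium (M0) in the left panel and IL-4 (M2) minus control medium in the right one; filled points passed the test and orange points leave out 5 libraries at odds with their labels. Man2b1, Galc and Lipa lie near -1.6 or below in the LPS panel, and Sgsh is the lowest point of the IL-4 panel at -1.84.

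With IL-4 and all libraries, the members that passed the test all fell. In non-irradiated M2 against M0, 4 of 33 members fell and none rose, whereas 4.9% of all genes tested fell and 4.93% rose. The members' median log2 fold change was -0.14 and that of all genes -0.013. Sgsh, the sulfamidase that removes N-linked sulfate from heparan sulfate, fell most. It held 14.1, 18.6 and 24.1 CPM in M2 libraries, against 70.1, 72.4 and 60.2 CPM in M0 libraries. Its log2 fold change was -1.84 ± 0.37 (adjusted p = 0.00521), and the groups did not overlap. In M1 libraries Sgsh had 63.5, 44.9 and 80.1 CPM, which overlaps the M0 values.

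Scarb2, the membrane receptor LIMP-2 that carries glucocerebrosidase to the lysosome, had 129, 164 and 153 CPM in M2 libraries, against 269, 339 and 259 CPM in M0 libraries, a log2 fold change of -0.95 ± 0.17 (adjusted p = 0.00197). Cd68 had 549, 518 and 710.3 CPM in M2 libraries, against 1068, 907 and 1115 CPM in M0 libraries, and fell by 0.81 (adjusted p = 0.00299). Ppt1, the thioesterase that strips palmitate from proteins, had 67.4, 68.5 and 70.0 CPM in M2 libraries, against 94.5, 107 and 109 CPM in M0 libraries, and fell by 0.59 (adjusted p = 0.021). In each of these 3 called genes the M2 values all lay below the M0 values. The calls rest on the same values, and the share of all genes without overlap was not counted. The call of Ppt1 was lost in 4 of 6 fits that leave out 1 library (adjusted p 0.0598 to 0.0748), and the other calls were kept.

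Gusb and Lipa, which LPS lowered, did not pass the test with IL-4. Gusb had 894, 904 and 716 CPM in M2 libraries, and Lipa had 2222, 2335 and 2212 CPM there. Their log2 fold changes against M0 were -0.0044 and -0.071 (adjusted p = 0.997 and 0.945). Atp6v1h, a regulatory subunit of the proton pump, had 237, 245 and 254 CPM in M2 libraries, against 146, 139.9 and 143 CPM in M0 libraries; the values did not overlap, but the adjusted p of its log2 fold change of 0.78 was 0.0537. Lamp1, Lamp2, Npc1, Psap, Grn and Tfeb had log2 fold changes of -0.19, 0.47, -0.09, 0.36, -0.35 and 0.015, none past the threshold (adjusted p 0.116 to 0.986). Without the 5 libraries at odds 9 members fell and 4 rose, with 12.9% and 13.3% of all genes; with the replicate block as well, 8 fell and 3 rose. The 4 that rose without the block were Atp6v1h (adjusted p = 5.04e-05), Lamp2, Psap and Cd63, and those added on the lower side were Galc, Hexa, Man2b1, Arsb and Idua. Cd63 and Man2b1 no longer passed with the block.

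Markers of other marrow cells moved with the treatments as well. Of all genes tested 7.54% fell and 9.87% rose with LPS, and 4.9% fell and 4.93% rose with IL-4. Of 17 neutrophil markers tested 2 fell with LPS and 6 with IL-4, and of 17 macrophage markers 3 fell and 2 rose with LPS while 6 fell with IL-4. In bulk RNA, fewer cells of a type and less RNA per cell cannot be told apart, and the part of these markers in the results was not tested.

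The next question was whether irradiated marrow gave macrophages with other lysosomal transcript levels. Averaged over the 3 states with equal weight, the same 5 genes rose in both irradiated arms and none fell: Arsb, Gusb, Neu1, Gla and Smpd1. That is 5 of 33 members in each arm, against 3.26% of all genes called higher and 4.47% lower after FLASH, and 3.36% higher and 4.52% lower after standard irradiation. The members' median log2 fold change was 0.22 after FLASH and 0.17 after standard irradiation, while the medians of all genes tested were -0.0055 and -0.0067. In each arm 27 of the 33 fold changes were above 0, against 6508 and 6495 of 13297 genes. With the replicate block 4 members passed after FLASH, without Gusb, and 3 after standard irradiation, without Gusb and Neu1. Both arms are set against the same 9 non-irradiated libraries, so the 2 sets of fold changes are not independent.

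Arsb had the largest change. The lowest, median and highest of 9 libraries were 43.4, 91.5 and 111 CPM after FLASH, 49.9, 94.1 and 114 CPM after standard irradiation and 25.3, 50.1 and 63.5 CPM without irradiation. Its level also differed by state. In M0 it held 91.5, 102 and 111 CPM after FLASH and 94.1, 97.7 and 114 CPM after standard irradiation, against 62.4, 63.4 and 63.5 CPM without irradiation, with every irradiated library above every non-irradiated one. Over the mean of states its log2 fold change was 0.83 ± 0.18 after FLASH and 0.85 ± 0.18 after standard irradiation (adjusted p = 0.00598 and 0.00457).

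Gusb came next by size. In M1 it had 1205, 683 and 535 CPM after FLASH and 1249, 662 and 570.5 CPM after standard irradiation, against 347, 292 and 352 CPM without irradiation. Replicate 1 of both irradiated groups is among the libraries at odds, but the other libraries also lay above all 3 non-irradiated values. Over the mean of states the log2 fold changes were 0.63 ± 0.19 after FLASH and 0.64 ± 0.19 after standard irradiation, close to the threshold (adjusted p = 0.0499 and 0.046). Neither passed with the replicate block (adjusted p = 0.0823 and 0.0758). The call of Gusb was lost in 16 of 18 fits that leave out 1 library after FLASH and in 15 of 18 after standard irradiation, whereas without the 5 libraries at odds it was kept in both arms (adjusted p = 9.17e-05 and 9.47e-05).

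For Gla the irradiated and non-irradiated libraries did not overlap in M0 and M2. In M0 it had 377, 313 and 426 CPM after FLASH and 353, 304 and 374 CPM after standard irradiation, against 213, 244 and 190.0 CPM without irradiation. In M2 it had 361, 325 and 388 CPM after FLASH and 352, 282 and 376 CPM after standard irradiation, against 196, 217 and 231 CPM without. In M1 the values overlapped, at 351, 404 and 327 CPM after FLASH and 380.4, 376 and 316 CPM after standard irradiation, against 353, 489 and 336 CPM without irradiation. Over the mean of states the log2 fold changes were 0.47 ± 0.091 and 0.40 ± 0.091 after FLASH and standard irradiation (adjusted p = 0.0023 and 0.00852).

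Neu1 had 119, 146 and 135 CPM in FLASH M0 libraries and 144, 129.6 and 140.3 CPM in standard M0 libraries, against 86.5, 107 and 85.1 CPM in non-irradiated M0 libraries, with no overlap. Over the mean of states it rose by 0.47 after FLASH and 0.43 after standard irradiation (adjusted p = 0.0183 and 0.0301), and the second call was lost in 9 of 18 fits that leave out 1 library and with the replicate block (adjusted p = 0.0532). Smpd1, the acid sphingomyelinase that makes ceramide from sphingomyelin, had the smallest of the 5 changes and a small error. It rose by 0.28 ± 0.059 after FLASH and 0.32 ± 0.059 after standard irradiation (adjusted p = 0.00458 and 0.00144). In M0 it had 43.5, 50.6 and 44.2 CPM after FLASH and 46.3, 47.7 and 49.1 CPM after standard irradiation, against 32.1, 36.7 and 37.8 CPM without irradiation. Arsb, Gla and Smpd1 kept their calls in both arms in all 18 such fits, as did Neu1 after FLASH.

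**Figure D3:**
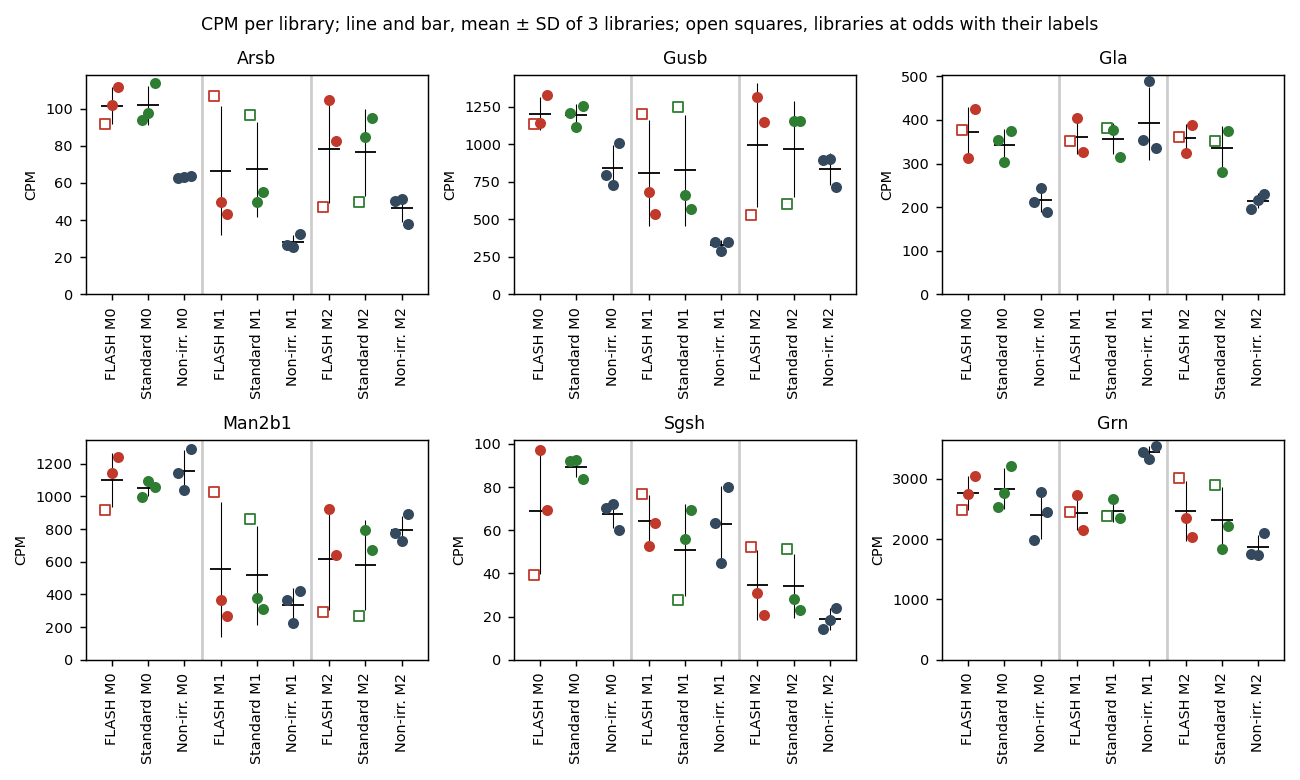
CPM of 6 lysosomal genes in each library (points), with each group's mean ± SD over 3 libraries (line and bar); groups run FLASH, standard and non-irradiated within M0, M1 and M2, and open squares are libraries at odds with their labels. Arsb and Gla lie higher in irradiated than in non-irradiated M0 libraries, Sgsh is lowest in non-irradiated M2 libraries, and Grn is highest in non-irradiated M1 libraries.

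The membrane proteins were not called with all libraries. Lamp1 had log2 fold changes of 0.038 after FLASH and 0.061 after standard irradiation (adjusted p = 0.843 and 0.719), and its 9 libraries ran from 1695 to 2298 CPM after FLASH and from 1722 to 2268 CPM after standard irradiation, against 1479 to 2536 CPM without irradiation. Lamp2 had 0.21 and 0.13 after FLASH and standard irradiation (adjusted p = 0.274 and 0.509). In M0, however, its values did not overlap, at 1116, 1128 and 1163 CPM after FLASH and 996, 994 and 929 CPM after standard irradiation, against 733, 709.6 and 748 CPM without irradiation. Cd68 had log2 fold changes of 0.17 and 0.11, Npc1 of 0.21 and 0.17, Psap of -0.07 and -0.11 and Grn of 0.031 and 0.02, each after FLASH and standard irradiation, with adjusted p from 0.278 to 0.939. Tfeb itself had -0.21 and -0.28 (adjusted p = 0.586 and 0.431), the lowest of the 33 in both arms.

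Leaving out the 5 libraries at odds moved the fold changes over the mean of states little, by at most 0.055 after FLASH (Lipa) and 0.065 after standard irradiation (Lamp2), but cut the error. In that fit 13 members rose and none fell after FLASH, while 7.46% of all genes rose and 7.03% fell. After standard irradiation 11 rose and 2 fell, while 8.16% of all genes rose and 9.89% fell. Added in both arms were Lipa (0.52 after FLASH and 0.44 after standard irradiation), Glb1, the beta-galactosidase often stained as a senescence marker (0.43 and 0.41), Fuca1, Atp6v1h, Tpp1 and Ppt1. Npc2 and Scarb2 passed after FLASH and not after standard irradiation. The 2 that fell passed after standard irradiation and not after FLASH: Asah1, the acid ceramidase (-0.22, adjusted p = 0.0167), and Tfeb (-0.28, adjusted p = 0.0146). The difference between the arms is tested below and no member passed it. With the replicate block and without the 5 libraries, 11 rose after FLASH, and 10 rose and 2 fell after standard irradiation. Npc2 and Scarb2 after FLASH and Gla after standard irradiation no longer passed.

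**Figure D4:**
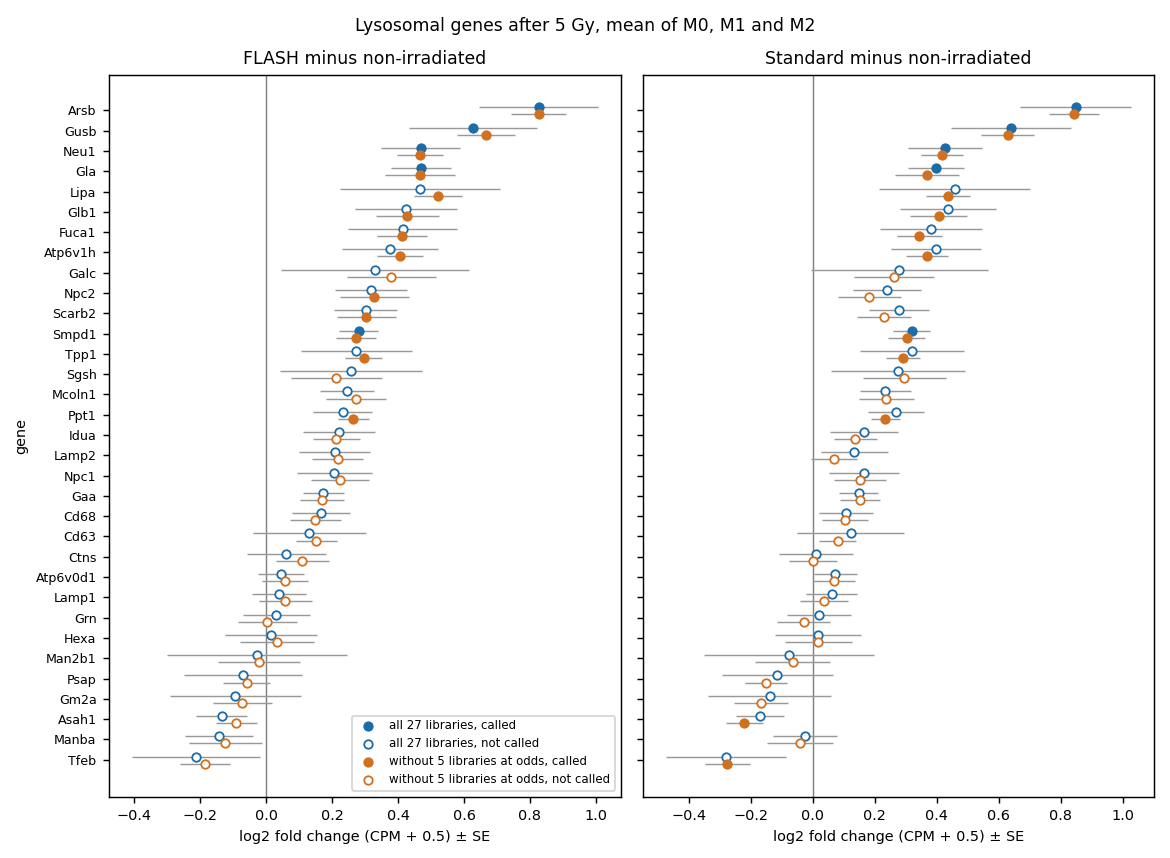
Log2 fold change ± SE of each lysosomal gene over the mean of M0, M1 and M2, FLASH minus non-irradiated in the left panel and standard minus non-irradiated in the right one; filled points passed the test and orange points leave out 5 libraries at odds with their labels. Arsb is highest in both panels, at 0.83 and 0.85, and Tfeb is lowest, at -0.21 and -0.28.

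State by state fewer calls passed. After FLASH, Gla rose in M0 (0.78 ± 0.16, adjusted p = 0.00806) and Gla and Smpd1 rose in M2 (0.74 ± 0.16 and 0.44 ± 0.10, adjusted p = 0.0219 and 0.0352). Those are 1 and 2 of 33 members, against 0.489% and 0.436% of all genes called higher in M0 and M2, and 1.62% and 0.662% called lower. In M1 no member passed after FLASH, against 0.729% of all genes higher and 1.8% lower. After standard irradiation, Gla and Smpd1 rose in M0 (0.67 ± 0.16 and 0.42 ± 0.10, adjusted p = 0.0253 and 0.0313), with 0.677% of all genes higher and 1.35% lower. In M1, Arsb and Gusb rose (1.19 ± 0.31 and 1.24 ± 0.33, adjusted p = 0.0432 and 0.0498), with 0.985% of all genes higher and 1.62% lower. Without Standard M1 replicate 1, a library at odds, the fold changes of Arsb and Gusb were 0.89 and 0.90. In M2, Gla and Smpd1 rose again (0.64 ± 0.16 and 0.42 ± 0.10, adjusted p = 0.0447 and 0.0435), with 0.557% of all genes higher and 0.797% lower.

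These calls within a state rest on few libraries, and with the replicate block only that of Gla in FLASH M0 was kept. With the block the adjusted p of Gla and Smpd1 was 0.0529 and 0.0839 in FLASH M2, 0.0562 and 0.0716 in standard M0 and 0.0924 and 0.0957 in standard M2, and that of Arsb and Gusb was 0.0801 and 0.0899 in standard M1. The single FLASH M0 call was lost without FLASH M0 replicate 3 or non-irradiated M0 replicate 3, and the count of FLASH M2 fell to 0 or 1 without any 1 library of its groups other than FLASH M2 replicate 2. In FLASH M1, 2 members were called once FLASH M1 replicate 3 was left out. In the standard arm any 1 library left out brought the M0 and M1 counts to 0 or 1, and the M2 count to 0, except that 5 members were called in M2 without Standard M2 replicate 2. Without the 5 libraries at odds more members passed in each state, all of them upward except 1, but not always the same ones. Fold changes within a state moved more than the means, by up to 0.35, 0.57 and 0.52 after FLASH in M0, M1 and M2. After standard irradiation they moved by up to 0.50 in M1 and 0.48 in M2. Of the M2 calls, Smpd1 was lost after FLASH (adjusted p = 0.0552), and Gla and Smpd1 were both lost after standard irradiation (adjusted p = 0.0849 and 0.102), so that no call of standard M2 was shared by the 2 fits. In M0, 13 members rose after FLASH and 13 after standard irradiation, against 2.44% and 3.32% of all genes higher (2.88% and 4.1% lower). Arsb, Glb1, Gla, Neu1, Gusb, Lipa, Fuca1, Atp6v1h, Lamp2, Smpd1, Tpp1 and Ppt1 were on both lists, Npc2 on the FLASH list and Mcoln1, a calcium channel of the lysosomal membrane, on the standard one. No standard M0 or non-irradiated M0 library was at odds, so the standard M0 fold changes are the same in both fits. In M1, 3 rose after FLASH (against 1.87% of all genes higher and 3.06% lower), namely Arsb, Gusb and Lipa; the same 3 rose after standard irradiation (2.25%), while Psap fell by 0.46 (adjusted p = 0.0364; 3.35% of all genes fell). In M2, Arsb, Gla, Neu1, Ppt1 and Tpp1 rose after FLASH (5 members, against 2.12% of all genes higher and 1.18% lower), and Arsb, Ppt1 and Tpp1 after standard irradiation (3 members, against 1.57% higher and 1.88% lower). Adding the replicate block to that fit left 5, 3 and 3 members after FLASH in M0, M1 and M2, and 7, 3 and 1 after standard irradiation. Among the calls lost were those of Psap in standard M1 and of Gla in FLASH M0 and M2.

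Markers of other marrow cells differed with irradiation too. Over the mean of states 4.47% of all genes fell and 3.26% rose after FLASH, and 4.52% fell and 3.36% rose after standard irradiation. The sum over 17 neutrophil markers was 43.0 to 293 CPM in irradiated libraries and 82.8 to 1291 CPM in non-irradiated ones, and 12 of 17 fell in each arm. The sum over 9 B-lineage markers was 6.17 to 23.9 CPM in irradiated libraries and 33.2 to 149 CPM in non-irradiated ones; of the 7 tested, 7 fell after FLASH and 6 after standard irradiation, and 6 of the 9 stayed below 1 CPM in all irradiated libraries. Of the 12 markers of monocytes and progenitors 6 fell in each arm, with sums of 44.5 to 908 CPM in irradiated and 53.5 to 1218 CPM in non-irradiated libraries. No marker of these 3 lists was at 0 in every library. The 17 macrophage markers summed to 15153 to 31005 CPM in irradiated libraries and 9330 to 33631 CPM in non-irradiated ones, and 2 rose while 3 fell in each arm. Smaller lists of dendritic, T and NK, mast, erythroid, stromal and osteoclast markers had from 0 to 4 members that fell and none that rose in either arm. The part of all these markers in the lysosomal results was not tested.

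The study's own contrast is FLASH against standard irradiation at the same dose, and here no member passed the test in any state or over the mean of states, with all libraries or without the 5 at odds. No gene of the whole table passed either; at an unadjusted p below 0.05 there were 397 genes in M0, 382 in M1, 227 in M2 and 393 over the mean, of which 1, 0, 0 and 0 were members. These numbers, with the 5 libraries at odds left out, were 580, 617, 605 and 1054, of which 0, 0, 1 and 0 were members. The members' median log2 difference was 0.018 in M0, -0.017 in M1, 0.047 in M2 and 0.025 over the mean of states. Over the mean, the FLASH minus standard difference was -0.021 (95% interval -0.39 to 0.35) for Arsb, 0.073 (95% interval -0.12 to 0.26) for Gla and -0.0099 (95% interval -0.41 to 0.39) for Gusb. For Smpd1 it was -0.037 (95% interval -0.16 to 0.085), for Lamp1 -0.022 (95% interval -0.19 to 0.15) and for Tfeb 0.069 (95% interval -0.33 to 0.47). Over all 33 members the 95% intervals ran from -0.54 to 0.64 with all libraries and from -0.39 to 0.42 without the 5 at odds. Within a state they were wider, from -1.25 to 1.05 in M0, -1.03 to 1.19 in M1 and -0.99 to 1.08 in M2 with all libraries. Differences of about that size could therefore have been missed, and the missing calls do not show that both beams act alike on these genes.

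Whether irradiation acted differently in the LPS state was tested as an interaction, the mean irradiation effect of both beams in M1 minus that in M0. With all libraries no member passed, against 0.105% of all genes above 0 and 0.173% below. Without the 5 libraries at odds 5 members had a lower effect in M1, against 1.06% of all genes lower and 0.979% higher: Npc2, Gla, Lamp2, Grn and Ppt1. Their interaction terms were -0.89 ± 0.21, -0.85 ± 0.21, -0.81 ± 0.15, -0.75 ± 0.18 and -0.42 ± 0.10 (log2, adjusted p = 0.0349, 0.0479, 0.0144, 0.0389 and 0.0312). In that fit 5 of the 9 groups hold 2 libraries. With the replicate block added only Lamp2 passed (adjusted p = 0.0217), and the other 4 had adjusted p from 0.0504 to 0.0768. For Grn, libraries that followed their labels held 2731 and 2145 CPM in FLASH M1 and 2672 and 2342 CPM in standard M1, against 3449.9, 3326 and 3545 CPM in non-irradiated M1. All 4 irradiated values lay below the 3 non-irradiated ones. In M0 the order was not kept, with 2754 and 3046 CPM after FLASH and 2535, 2769 and 3206 CPM after standard irradiation, against 1982, 2778 and 2445 CPM without irradiation. For the IL-4 state no member's interaction passed in either fit, against 0.0301% of all genes above 0 and 0.015% below with all libraries.

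Across all comparisons 17 of the 33 members passed the test at least once with all libraries (51.5%) and 16 did not, against 31.7% of all genes tested. In either that fit or the one without the 5 libraries at odds 57.6% of all genes passed at least once. Of the members, 29 did (87.9%) and 4 did not: Lamp1, Gaa, the acid alpha-glucosidase that degrades glycogen, Manba, the beta-mannosidase, and Atp6v0d1, a subunit of the membrane sector of the proton pump. Over the 27 libraries Gaa lay at 122 to 186 CPM (median 167), Manba at 40.7 to 78.7 CPM (median 63.6) and Atp6v0d1 at 174 to 242 CPM (median 204). Idua, the iduronidase of dermatan and heparan sulfate, lay at 37.5 to 86.9 CPM, Asah1 at 278 to 423 CPM, Gm2a, the activator that lifts GM2 ganglioside to beta-hexosaminidase, at 240 to 688 CPM, and Mcoln1 at 42.6 to 77.5 CPM. Each of these last 4 passed in the fit without the 5 libraries and not with all of them.

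The members can also be split by the E-box core of their promoters. Over the mean of states, where 3.26% and 3.36% of all genes rose after FLASH and standard irradiation, 1 of the 7 members with CACGTG rose after each beam (Gla), with a median log2 fold change of 0.25 after FLASH and 0.23 after standard irradiation. Of the 23 whose promoter window lacks it 4 rose, with medians of 0.22 and 0.17. After LPS, 1 of the 7 rose and none fell, with a median of -0.0015, while 3 of the 23 rose and 8 fell, with a median of -0.66; of all genes 9.87% rose and 7.54% fell. Leaving out the 5 libraries at odds, 2 of the 7 rose after each beam. Of the 23, 10 rose after FLASH, and 8 rose and 1 fell after standard irradiation, while 7.46% and 8.16% of all genes rose. With LPS 1 of the 7 rose in that fit, and of the 23, 6 rose and 12 fell, against 18% and 16.9% of all genes. This split is a description and carries no test.

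Genes of the same organelle outside the 33 were counted from lists written from general knowledge, again with earlier results of these data known. After irradiation, over the mean of states, 6 of 23 other hydrolases rose after FLASH and 5 after standard irradiation, with none falling; of all genes 3.26% and 3.36% rose. The named ones were Galns, a sulfatase of keratan and chondroitin sulfate (0.66 and 0.75 after FLASH and standard irradiation, adjusted p = 2.51e-06 and 3.86e-07), Fuca2 after FLASH (0.51, adjusted p = 0.00022) and Man2b2 after standard irradiation (0.48, adjusted p = 0.00018). Of 14 cathepsins and legumain 3 rose and 1 fell in each arm. Ctsl, a cysteine protease of the lysosome, rose by 1.11 after FLASH and 1.10 after standard irradiation (adjusted p = 0.00375 and 0.00376), and Ctsf rose by 0.85 and 0.87 (adjusted p = 0.0341 and 0.029, but 0.0586 and 0.0508 with the replicate block). The gene that fell was Ctsw after FLASH (-1.14, adjusted p = 0.00168) and Ctse after standard irradiation (-0.78, adjusted p = 0.017). Ctsw is known from cytotoxic lymphocytes. In M1 it was called lower in both arms, at -2.61 after FLASH and -1.68 after standard irradiation (adjusted p = 0.000198 and 0.0165).

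Of 16 other proton pump subunits 3 rose after FLASH and 2 after standard irradiation. The single call among 27 other membrane and transport proteins in each arm was Laptm4b (0.75 after FLASH and 0.60 after standard irradiation, adjusted p = 0.000396 and 0.00342). Of 20 tested genes of the MiT/TFE and mTORC1 circuit, Rragd, a Rag GTPase, rose by 0.56 and 0.46 (adjusted p = 0.0136 and 0.0387), the second call being lost with the replicate block (adjusted p = 0.0653). Of 19 autophagy genes 2 rose in each arm, and Atg12 was the shared one (0.45 and 0.39, adjusted p = 8.17e-05 and 0.000339). The other was Nbr1 after FLASH and Wipi1 after standard irradiation. Neither passed with the replicate block (adjusted p = 0.0557 and 0.0649). Of 19 sorting genes, Gnptg rose after FLASH (0.33, adjusted p = 0.0381, but 0.0669 with the replicate block) and had 0.25 after standard irradiation (adjusted p = 0.135). No gene of these 7 lists passed the test between FLASH and standard irradiation. With the 5 libraries at odds left out, 10 of the 23 other hydrolases rose in each arm and none fell, and 8 of the 16 other proton pump subunits rose after FLASH and 5 after standard irradiation. In that fit 5 of the 14 cathepsins and legumain rose and 1 fell after FLASH, and 4 rose and 3 fell after standard irradiation. Of the other membrane and transport proteins 6 rose after FLASH and 7 after standard irradiation. Of all genes 7.46% and 8.16% rose in that fit.

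With LPS the same lists went both ways, as did all genes, of which 9.87% rose and 7.54% fell. Of the other hydrolases 7 rose and 1 fell, and of the cathepsins 4 rose and 1 fell. Ctsw rose most among the cathepsins, by 2.13 (adjusted p = 0.00164). Ctss, a cathepsin of antigen processing, was at 0.97 (adjusted p = 0.00307) and Ctsf at -2.23 (adjusted p = 0.00259). Of the other membrane proteins 2 rose, among them the chloride-proton exchanger Clcn7 at 1.08 (adjusted p = 0.0156), and 5 fell, among them the cation channel Tpcn1 at -2.22 (adjusted p = 0.00307). Sort1, a sorting receptor, fell by 2.88 (adjusted p = 0.0143) and was 1 of 2 sorting genes that fell while 1 rose. Of the proton pump subunits 1 rose, of the autophagy genes 3 rose and 1 fell, and of the MiT/TFE circuit none passed, Tsc1 having the smallest p (-0.61, adjusted p = 0.0763). With IL-4, 1 cathepsin (Ctsz) and 1 proton pump subunit rose, while 4.93% of all genes rose and 4.9% fell. Ctsz did not pass with the replicate block (adjusted p = 0.0709). Among those that fell were Ctsh (-1.14, adjusted p = 0.0195), Fnip2 (-0.88, adjusted p = 0.00608) and Ulk1, the kinase that starts autophagy (-1.13, adjusted p = 0.00277), within 1 other hydrolase, 1 cathepsin, 2 membrane proteins, 3 genes of the MiT/TFE circuit, 3 autophagy genes and no sorting gene. In the fit that leaves out the 5 libraries at odds, 7 other hydrolases rose and 5 fell with LPS, and 2 rose and 4 fell with IL-4. Of the other membrane and transport proteins 8 rose and 6 fell with LPS, and 3 rose and 12 fell with IL-4. Of all genes 18% rose and 16.9% fell with LPS and 13.3% and 12.9% with IL-4, so the shares of other hydrolases called with IL-4 lay near those of all genes.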

How the data were processed

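The deposited table holds 27 mouse libraries. Per the submitters' processing notes the authors used kallisto 0.46.1, R 4.0.5 and edgeR 3.36.0, and the notes name the human build GRCh38. The deposited signal is CPM scaled between libraries by the authors: column sums run from 929399.7 to 1072727.2. Reads recovered from the smallest step between values were 20.7 M to 25.8 M per library, with 96.5% to 98.2% of values whole within 0.01 read (86.8% to 93.6% under 20 reads), so no test for counts was used. A row without a symbol (0.0048% to 0.0080% of a library) was left out.

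Tested genes had to reach 1 CPM in 3 or more libraries (13297 genes, or 13181 without 5 libraries), and values were put on log2(CPM + 0.5), a scale that understates the change of low genes. One limma 3.58.1 model (R 4.3.3; trend and robust moderation, 9 group means) was fitted to all 27 libraries, with Benjamini-Hochberg adjustment within each of 16 comparisons and calls at an adjusted p below 0.05. The pipeline was tested on simulated data. A library counted as at odds when it lay above 0.5 on the axis of a treatment it is not labelled with, or under 0.5 on that of its own.

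The members and lists were chosen with earlier results of these data known. Named in full are, per comparison, up to 4 called members per direction by size of change plus 8 fixed genes (Lamp1, Lamp2, Cd68, Npc1, Psap, Grn, Gusb, Tfeb); of the other lists, up to 2 called genes per direction or else the one with the smallest p. Alternatives tried were another pseudocount, filter and scaling, only the groups compared, a block for replicate number (also without the 5 libraries, added after seeing the data), replicate numbers 2 and 3 only, and each library left out in turn.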

Additional observations from a re-analysis of the deposited data

Results flagged for a closer look

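For 5 genes, interactions passed the test when the libraries at odds with their labels were left out: the mean irradiation effect in M1 minus that in M0 was -0.89 for Npc2, -0.85 for Gla, -0.81 for Lamp2, -0.75 for Grn and -0.42 for Ppt1 (log2, limma adjusted p 0.0144 to 0.0479). With all 27 libraries the same terms were -0.90, -0.84, -0.61, -0.72 and -0.43, and none passed (adjusted p 0.0665 to 0.396). With replicate numbers 2 and 3 only, Lamp2 passed alone (-0.82, adjusted p = 0.0156). With the replicate block and without the libraries at odds, Lamp2 also passed alone (-0.83, adjusted p = 0.0217). In the fit in which all 5 passed, 5 of 9 groups hold 2 libraries. The formal check for 1 outlying value in a group needs 4 libraries and was not run.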

How the results depend on the processing

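Across all alternatives no member's fold change that had passed the test turned its direction. Counts of members called did move, and the cause was not tested. Without the 5 libraries at odds with their labels the counts were 20 for LPS, 13 for IL-4, 13, 3, 5 and 13 for FLASH in M0, M1, M2 and the mean of states, 13, 4, 3 and 13 for standard irradiation in the same order, and 5 for the M1 interaction. With replicate numbers 2 and 3 only, which also leaves out those 5, they were 7 for IL-4, 6, 3 and 10 for FLASH in M0, M1 and the mean, 1 and 9 for standard irradiation in M2 and the mean, and 1 for the M1 interaction. Fitting only the groups compared gave 19 for LPS, 8 for IL-4, 3 and 0 for FLASH in M0 and M2, and 9, 0 and 0 for standard irradiation in M0, M1 and M2. Without a filter 1 member was called for FLASH M2 and 0 for standard irradiation in M1 and M2, and the stricter filter and median-of-ratios scaling each gave 1 for standard M1.

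Leaving out 1 library at a time gave 2 to 11 calls for LPS, 3 to 4 for IL-4, 0 to 1, 0 to 2, 0 to 2 and 4 to 7 for FLASH in M0, M1, M2 and the mean, 0 to 1, 0 to 1, 0 to 5 and 3 to 5 for standard irradiation in the same order, and 0 for FLASH against standard irradiation and both interactions. The count of 3 for the mean after standard irradiation came without non-irradiated M0 replicate 1, non-irradiated M1 replicate 1, non-irradiated M2 replicate 2, or Standard M0 replicate 1 or 3.

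The labels do not say what a shared replicate number stands for, so the reported fit has no block. Of 36 pairs with number 1, 2 and 3, 5, 2 and 2 had deviations correlated above 0.1, and 0 of 27 libraries correlated best with its own number. This check says nothing about pairing, since the averages of the 3 numbers hardly differ in the deposited values. With a replicate block 2 members rose and 8 fell with LPS. The counts were 0 for FLASH M2 and 4 for the FLASH mean, 0 for standard irradiation in M0, M1 and M2, and 3 for its mean. With the block and without the 5 libraries at odds, a fit chosen after seeing the data, they were 19 for LPS, 11 for IL-4, 5, 3, 3 and 11 for FLASH in M0, M1, M2 and the mean, 7, 3, 1 and 12 for standard irradiation in the same order, and 1 for the M1 interaction. Median-of-ratios scaling moved the median of all genes by at most 0.024 (log2). At the filter of 1 CPM a value rests on about 20.7 to 25.8 reads, which limits what can be seen in low genes.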
